A study of Musa acuminata AAA Group with 12 samples.

Results

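Fruit pulp lost transcripts of many genes between day 1 and day 7 of ripening. The 200 genes described here had the deepest loss among genes measured in every library and similar in coated and control fruit on day 1. They were chosen from the 35273 gene rows of the deposited tables in 3 steps. An FPKM (fragments scaled to the length of the gene and to the depth of the library) of at least 1 in all 12 libraries was met by 13064 genes. Of these, 10292 had group means within 1.5-fold of each other between coated and control fruit on day 1, and they are called the eligible genes. The eligible genes were then ranked by the lowest day 1 value divided by the highest day 7 value, which is called the rule ratio, and the first 200 were taken as members. The change from day 1 to day 7 and the likeness of coated and control fruit on day 1 are therefore properties of the choice. They are described as values, and any p-value given for them restates the choice.

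The fruit was Cavendish banana (Musa acuminata, AAA Group), and according to the study's methods all groups came from ethylene-treated banana fingers. Pulp of uncoated fruit was sampled on day 1 (1K) and day 7 (7K). Pulp of fruit coated with 1.25% chitosan was sampled on the same days (1A and 7A). Each of the 4 groups had 3 libraries from biological replicates, named a to c. The reads of this cultivar were mapped by the authors to the genome of another banana, DH Pahang version 2, and gene IDs and coordinates below are those of that genome as the deposited tables give them. The tables hold IDs without gene names and 0 of them matched the gene table at hand, which is of another assembly, so no function is given for any member and the pulp label was not checked against marker genes. In bulk pulp, fewer cells of a type and less RNA per cell cannot be told apart.

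Banana is a climacteric fruit: ripening starts with a burst of respiration and of ethylene, a gaseous hormone that triggers its own synthesis. During ripening the pulp turns its starch into sugars, cell walls are taken apart and aroma compounds are made. Chitosan, a polysaccharide made from chitin, forms an edible film on the peel that limits gas exchange.

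The width of the 95% confidence intervals in the tables implied between 6136363 and 16553611 fragments per library. The lowest implied total was that of 7A_c, which was not among the libraries with the fewest reads in the study's run statistics, so it describes the precision of the deposited values and not the sequencing depth. Libraries also differed by the GC content of their reads in the study's run statistics, which was lower in 5 libraries (1K_c, 1A_a, 1A_b, 7K_c and 7A_c) than in the other 7. This division crosses day and coating unevenly. 1A_a and 1A_b are both lower GC libraries, whereas 1K_c, 7K_c and 7A_c are the only ones of their groups. The 200 members together held 6.27% to 6.95% of the summed FPKM of each day 1 library, and 0.625% to 0.790% of that of each day 7 library. The median FPKM of the members lay between 48.4 and 57.8 in the day 1 libraries and between 5.81 and 8.29 in the day 7 libraries. Over the 10292 eligible genes that median was 9.04 to 11.7 on day 1 and 10 to 14.9 on day 7. The members thus passed from well above the typical eligible gene to below it. A few genes carried much of the sum, since the 5 members with the highest day 1 mean made up 43.7% to 57.3% of the members' FPKM in the day 1 libraries.

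**Figure D1:**
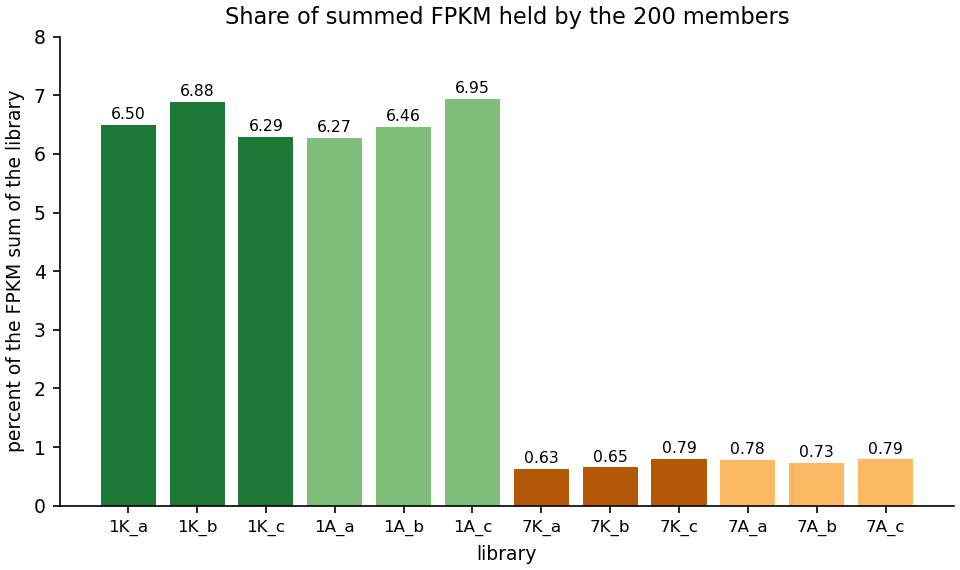
Percent of the summed FPKM of each library (vertical axis, starting at 0) held by the 200 members, with 1 bar per library and the colour of its group. The 6 day 1 bars lie between 6.27% and 6.95% and the 6 day 7 bars between 0.625% and 0.790%.

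Only 1249 of the eligible genes had a rule ratio above 1, that is, day 1 values that all lay above all day 7 values, and 334 had a rule ratio above 2. Among the members the rule ratio ran from 2.64 to 19.5 with a median of 3.65, and 11 members reached 10. Because this ratio compares the worst case of both days, the fold between group means was larger. From the mean of the 6 day 1 libraries to that of the 6 day 7 libraries the fold had a median of 6.77 and a range of 3.24 to 75.7, against a median of 0.763 over the eligible genes. A fold of at least 5 was found in 151 members, of at least 10 in 52 and of at least 20 in 13. A median of 14.8% of the day 1 mean was left on day 7, with a range of 1.32% to 30.9%.

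**Figure D2:**
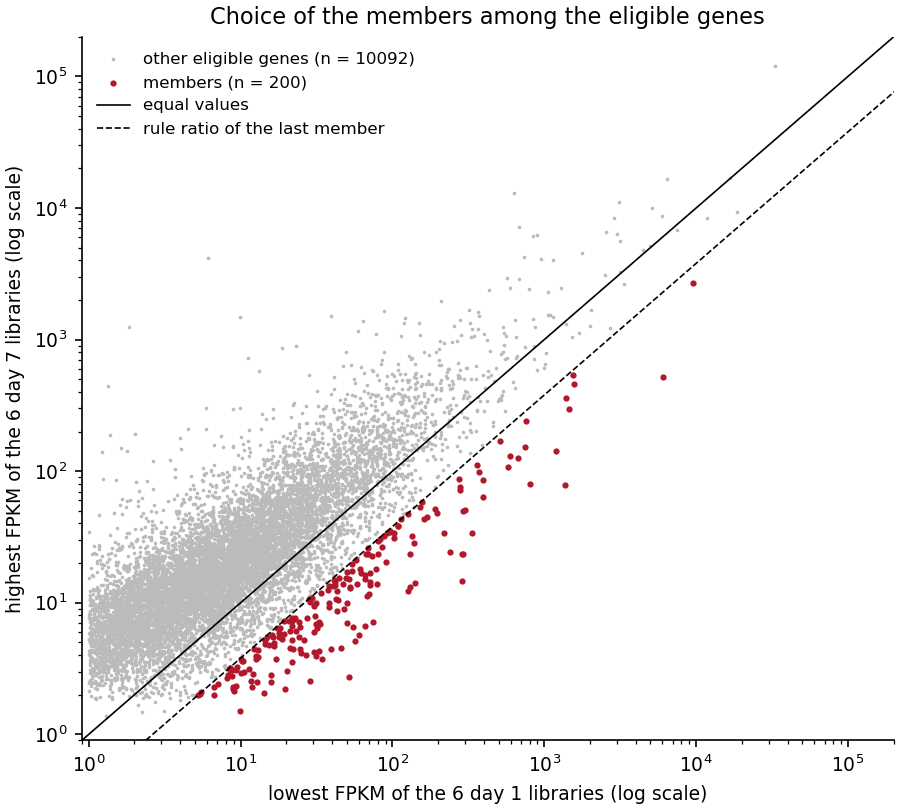
Lowest FPKM of the 6 day 1 libraries (horizontal axis) against highest FPKM of the 6 day 7 libraries (vertical axis), both on log scales, for the 10292 eligible genes, with the 200 members in red. The solid line marks equal values and the dashed line the rule ratio of 2.64 of the last member, and the members lie below it at all levels of expression.

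The limit of 200 cuts through a continuous range. The last 3 members, Ma02_g02770, Ma08_g13130 and Ma03_g11540, had rule ratios of 2.644, 2.639 and 2.637, and the 3 genes just outside, Ma09_g16420, Ma06_g36490 and Ma09_g14380, had 2.630, 2.629 and 2.628. The FPKM of the last member, Ma03_g11540 (chromosome 3, 8952537 to 8956536), was 5.66, 6.01 and 7.504 in 1K and 8.62, 5.52 and 6.24 in 1A, and 1.57, 1.61 and 2.04 in 7K and 2.09, 1.32 and 2.01 in 7A. For the first gene outside, Ma09_g16420 (chromosome 9, 11800405 to 11806928), it was 95.8, 90.6 and 96.4 in 1K and 108.5, 105.7 and 98.4 in 1A, and 27.6, 29.7 and 34.3 in 7K and 34.5, 27.0 and 32.3 in 7A. Between the means of both days the first fell 3.72-fold and the second 3.21-fold. A large fall alone did not place a gene among the members. Ma06_g36490 (chromosome 6, 35884539 to 35885098) fell by group mean 11.6-fold in control and 8.07-fold in coated fruit, yet its lowest day 1 value of 47.3 in 1A_c and its highest day 7 value of 18.0 in 7K_c left it outside.

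The largest falls were those of 3 members, Ma07_g07930, Ma03_g14410 and Ma10_g28910, with folds of 75.7, 69.7 and 59.2 between the day means. Ma07_g07930 (chromosome 7, 5890510 to 5895329) was ranked first. Its FPKM was 410.8, 466.6 and 287.5 in 1K and 373.7, 376.4 and 565.8 in 1A on day 1. On day 7 it was 2.91, 6.06 and 14.7 in 7K and 3.74, 3.69 and 1.61 in 7A. All 3 coated day 7 libraries lay below 7K_b and 7K_c, and only 7K_a fell within their range. The mean passed from 388.3 ± 91.6 to 7.90 ± 6.12 in control and from 438.7 ± 110.2 to 3.02 ± 1.22 in coated fruit (SD, n = 3 each).

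Ma03_g14410 (chromosome 3, 11575859 to 11577256) was an abundant transcript on day 1, with an FPKM of 1446, 1853 and 1358 in 1K and 2153, 1928 and 2646 in 1A. On day 7 it stood at 6.08, 22.7 and 78.3 in 7K and 16.9, 13.6 and 25.7 in 7A. Its lowest day 7 value was in 7K_a and its highest in 7K_c, so the coated libraries lay between the control libraries. Ma10_g28910 (chromosome 10, 35651170 to 35652308) had a still higher level on day 1, with 6043, 7116 and 9974 in 1K and 11136, 12070.2 and 7963 in 1A. On day 7 its FPKM was 21.2, 110.4 and 519.4 in 7K and 73.0, 56.0 and 137.6 in 7A. Here too the 3 coated libraries fell inside the range of the control, whose highest value was 24.5 times its lowest.

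Members with a smaller spread between replicates showed the fall more evenly. Ma04_g36630 (chromosome 4, 34907185 to 34912388), ranked second, had an FPKM of 57.9, 52.0 and 53.9 in 1K and 82.8, 72.2 and 52.3 in 1A on day 1. On day 7 it was close to the floor of 1, at 1.57, 1.40 and 2.03 in 7K and 1.80, 2.404 and 2.72 in 7A. It fell 32.7-fold in control and 29.9-fold in coated fruit. Ma05_g24120 (chromosome 5, 36385652 to 36390183) had 79.4, 77.0 and 87.9 in 1K and 80.7, 85.0 and 74.9 in 1A, and the 6 libraries of day 1 differed by little. Its day 7 FPKM was 3.81, 4.15 and 7.11 in 7K and 3.16, 3.15 and 2.91 in 7A, and all 3 coated libraries lay below all 3 control libraries. Ma05_g20240 (chromosome 5, 31853728 to 31861743) went from 945.1, 908.5 and 800.5 in 1K and 983.8, 928.4 and 1273 in 1A to 80.4, 61.0 and 78.6 in 7K and 75.2, 78.2 and 54.4 in 7A. Its coated and control libraries overlapped on both days.

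Ma09_g09470 and Ma06_g28090 were expressed at similar levels and fell in a similar way. Ma09_g09470 (chromosome 9, 6225832 to 6229634) had an FPKM of 321.0, 306.6 and 289.4 in 1K and 339.5, 300.9 and 416.4 in 1A, against 9.11, 11.3 and 23.5 in 7K and 9.97, 8.47 and 7.36 in 7A. Ma06_g28090 (chromosome 6, 29868051 to 29875296) had 339.0, 334.9 and 286.1 in 1K and 317.0, 313.8 and 407.6 in 1A, against 13.6, 11.6 and 23.4 in 7K and 13.3, 13.7 and 11.9 in 7A. In both genes 7K_c was the highest of the 6 day 7 libraries.

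The other 7 of the 15 members ranked first were Ma06_g25430 (chromosome 6, 25762569 to 25774144), Ma11_g03750 (chromosome 11, 2795297 to 2799033), Ma02_g14050 (chromosome 2, 22205581 to 22209273), Ma01_g01680 (chromosome 1, 1156152 to 1158383), Ma02_g07960 (chromosome 2, 18413904 to 18417921), Ma02_g19870 (chromosome 2, 26002922 to 26004197) and Ma11_g06070 (chromosome 11, 4839702 to 4857879). Their day 1 means over 6 libraries ran from 58.4 in Ma06_g25430 to 195.2 in Ma11_g06070, and their day 7 means from 1.92 in Ma06_g25430 to 12 in Ma02_g19870. Ma01_g01680 had the lowest coated level relative to control on day 1 among these 7, with 136.7 ± 13.2 in 1A against 195.7 ± 7.16 in 1K (SD, n = 3 each). On day 7 Ma11_g03750 had an FPKM of 5.12, 4.92 and 3.84 in 7A against 2.56, 2.25 and 4.22 in 7K, so the groups overlapped only at 7A_c and 7K_c.

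**Figure D3:**
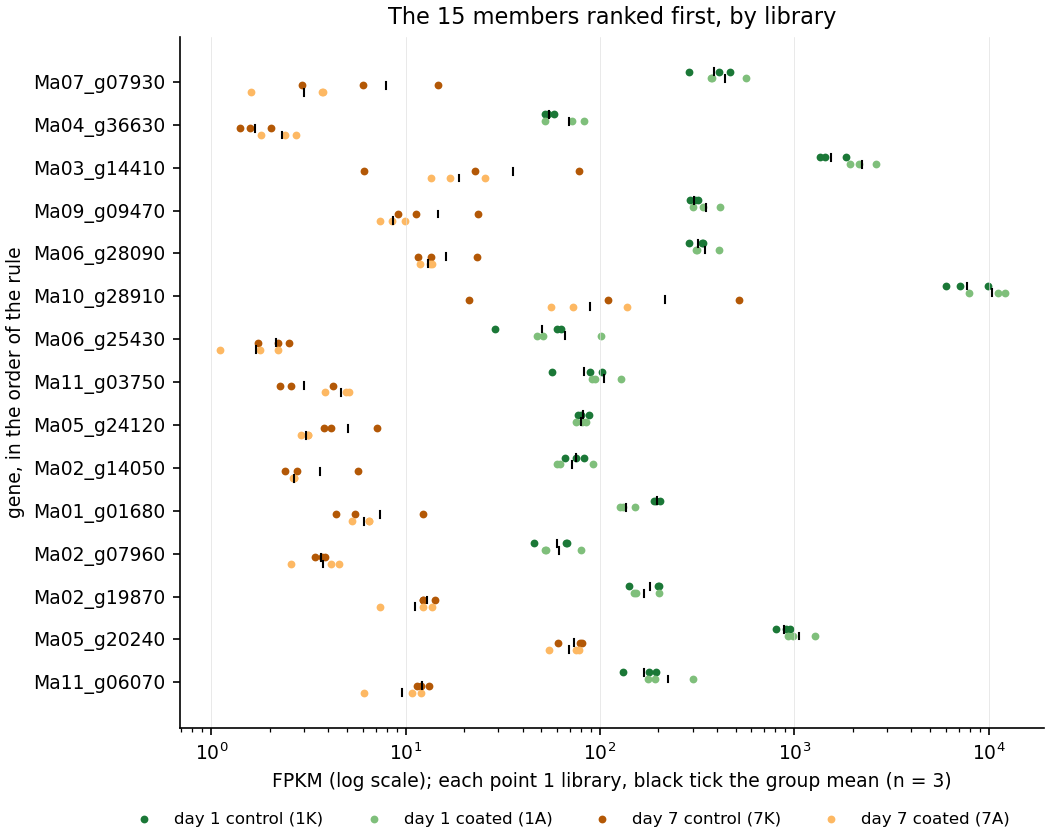
FPKM on a log scale (horizontal axis) of the 15 members ranked first (vertical axis, in the order of the rule), with 1 point per library in the colour of its group and a black tick at the mean of each group (n = 3). Day 1 and day 7 points are separated in every row, and the 7K points of Ma10_g28910, Ma03_g14410 and Ma07_g07930 are spread more widely than those of the other genes.

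Members covered a wide range of levels. The day 1 mean ran from 6.20 to 14288 with a median of 54.2, and it was at least 100 in 58 members and at least 1000 in 10. The day 7 mean had a median of 6.55, was under 2 in 22 members and at least 100 in 10. The gene with the highest level on both days, Ma06_g29580 (chromosome 6, 30915852 to 30917007), had an FPKM of 12912, 14497 and 19056 in 1K and 14187, 15606 and 9473 in 1A on day 1. On day 7 it still had 643.2, 932.0 and 1957 in 7K and 1379.8, 1207 and 2697 in 7A, more than most members had on day 1. Its fall by group means was 13.2-fold in control and 7.43-fold in coated fruit. Ma10_g28910 came second on day 1. The next 3 were Ma04_g15110 (chromosome 4, 11446941 to 11449226), Ma04_g33410 (chromosome 4, 33048194 to 33048907) and Ma01_g06520 (chromosome 1, 4683417 to 4685593). Their control means passed from 1668 ± 245.2 to 348.7 ± 21.5 in Ma04_g15110, from 2217 ± 274.3 to 488.9 ± 61.9 in Ma04_g33410 and from 1955 ± 224.2 to 350.5 ± 74.7 in Ma01_g06520 (SD, n = 3 each).

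All members fell in both control and coated fruit, as the rule requires, and the folds are set side by side without a test. The fold between group means had a median of 6.56 (range 2.93 to 49.1) from 1K to 7K and of 7.03 (range 3.21 to 145) from 1A to 7A. It was larger in coated fruit in 132 members and in control fruit in 68, and the folds lay within a factor of 1.5 of each other in 154. 1A held more lower GC libraries than 7A, and the part of this in the larger coated folds was not tested. With limma on log2(FPKM + 1), all 200 members were lower in 7K than in 1K and in 7A than in 1A at an adjusted p-value under 0.05, where the share of lower calls was 14.8% and 18.2% of the 19746 genes tested. Since the rule requires this separation, these counts restate the choice. The median log2 change was -2.48 from 1K to 7K and -2.61 from 1A to 7A in the members, and 0.37 and 0.34 over all genes tested. With median-of-ratios scaling of the libraries the median fold between the day means was 9.003 in place of 6.77. The day 1 values of all 200 still lay above all day 7 values. The choice bears on this too, since the lowest rule ratio was 2.64 before scaling and 2.27 after.

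**Figure D4:**
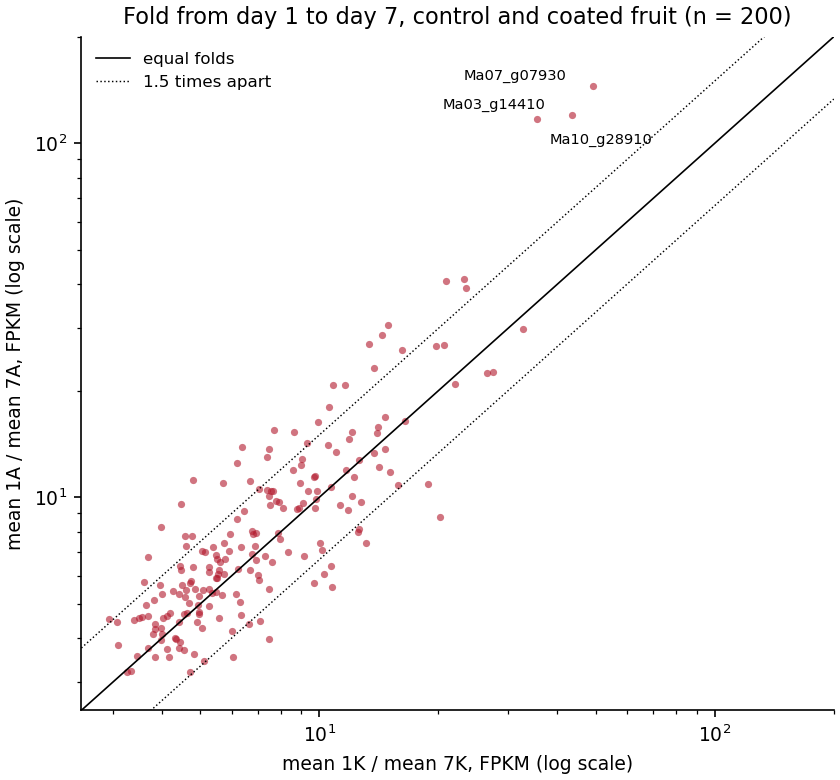
Fold from day 1 to day 7 by group means in control fruit (horizontal axis, mean 1K over mean 7K) and in coated fruit (vertical axis, mean 1A over mean 7A), both on log scales, with 1 point for each of the 200 members. The solid line marks equal folds and the dotted lines a factor of 1.5, within which 154 members lie, and the 3 named genes lie above it with the largest folds.

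Day 1 coating differences were limited by the rule and are given as values. The ratio of mean 1A to mean 1K had a median of 1.06 in the members and of 0.947 in the eligible genes. Mean 1A was above mean 1K in 60% of the members and in 40.5% of the eligible genes. 1A held more lower GC libraries than 1K, so coating and read GC content are mixed in part in these ratios. The widest ratio above 1 was 1.498 in Ma04_g39300, and the lowest ratio was 0.668 in Ma03_g08600.

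Coating on day 7 is the comparison of the design that the rule did not rank, and it concerns day 7 levels only. Whether the members fell less far under chitosan depends on the day 1 levels too and was not tested. The rule still bears on the day 7 comparison. A gene with 1 high value in any day 7 library was less likely to be chosen. With limma over all 19746 genes tested, 0 of the 200 members differed between 7A and 7K at an adjusted p-value under 0.05, where 0.142% of all genes tested and 0.0680% of the eligible genes did. Without adjustment, 24 members (12%) had a limma p-value under 0.05, against 7.64% of the genes tested and 6.53% of the eligible genes. With voom on the implied fragments the count of members called was also 0, against a background of 0.0861%. The median log2 difference, 7A minus 7K, was -0.09 in the members, -0.14 in the eligible genes and -0.13 in all genes tested, and it turned to 0.05 in the members with median-of-ratios scaling, where that of all genes tested was 0. Coated and control libraries were fully separated in 34 members, with coated fruit higher in 9 (4.5%) and lower in 25 (12.5%). Among all genes tested, 1.98% were higher and 9.83% lower without overlap. An adjusted p-value above the threshold does not show that a member had the same level in coated and control fruit, and no test over the members as a group was made.

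The members with the lowest p-value in each direction are given with their values, and they did not have the largest differences. Over all members the log2 difference, 7A minus 7K, ran from -0.97 to 0.86. Ma04_g02890 (chromosome 4, 2342931 to 2345852) had an FPKM of 2.59, 2.65 and 4.24 in 7K and 6.52, 5.09 and 5.83 in 7A. All 3 coated libraries were higher, with a log2 difference of 0.73 with a standard error of 0.18 (limma, adjusted p = 0.227). Its day 1 FPKM of 63.8, 60.3 and 54.6 in 1K and 57.1, 62.7 and 69.8 in 1A overlapped between coated and control fruit. Ma01_g17040 (chromosome 1, 12459616 to 12467651) stood at 1.57, 1.94 and 1.87 in 7K and 3.20, 2.78 and 2.92 in 7A on day 7. Coated fruit was again higher without overlap, with a log2 difference of 0.51 with a standard error of 0.14 (limma, adjusted p = 0.326).

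In the other direction, Ma10_g07330 (chromosome 10, 21743940 to 21747812) had an FPKM of 12.7, 15.3 and 18.0 in 7K and 10.6, 8.80 and 8.03 in 7A. The coated libraries were all lower, with a log2 difference of -0.68 with a standard error of 0.17 (limma, adjusted p = 0.231). Ma04_g15110, one of the most abundant members, had 323.8, 361.4 and 360.8 in 7K and 221.2, 218.5 and 197.7 in 7A on day 7, with a log2 difference of -0.71 with a standard error of 0.18 (limma, adjusted p = 0.246). Its day 1 FPKM was 1819, 1799.9 and 1385 in 1K and 2129, 2143 and 2846 in 1A, so coated fruit was the higher on day 1 and the lower on day 7, and its fall was 11.2-fold in coated and 4.78-fold in control fruit. Ma04_g39300, named after its values were seen, had the same order, with means of 83.1 ± 9.16 in 1A and 55.5 ± 4.21 in 1K, and of 8.66 ± 1.04 in 7A and 12.4 ± 0.818 in 7K (SD, n = 3 each). The adjusted p-values of the 4 genes named by the rule ranged up to 1 over the alternatives tried.

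Each day 7 group held 1 lower GC library, so a block for the GC group left the coating differences as they were and changed their error. When the fit held the GC group as a block, 23 members differed between 7A and 7K at an adjusted p-value under 0.05, 9 higher and 14 lower in coated fruit, where 9.08% of all genes tested and 10.3% of the eligible genes did. The members' 11.5% is near that background. By direction, 4.5% of the members were called higher and 7% lower, against 1.87% and 7.20% of all genes tested. The split turned to 20 higher and 3 lower when median-of-ratios scaling was added to the block, so no direction is given for these members together. The 4 genes above were called with the block, at adjusted p-values of 0.0147 for Ma04_g02890, 0.0213 for Ma01_g17040, 0.0129 for Ma10_g07330 and 0.00332 for Ma04_g15110 (limma). With quantile normalization added to the block, Ma04_g02890 and Ma10_g07330 were no longer called, at adjusted p-values of 0.0691 and 0.0628 (limma). The log2 differences of the 4 genes within the 4 higher GC libraries of day 7 were 0.90, 0.53, -0.48 and -0.64 in that order, and between the 2 lower GC libraries, 7A_c and 7K_c, 0.38, 0.45, -1.07 and -0.86. Since the 3 coated and 3 control values of these genes were separated, the sign within each GC group was fixed. Over all members the median log2 difference was 0.01 within the higher GC libraries and -0.35 between the lower GC libraries, where the eligible genes had -0.08 and -0.26. Coated fruit was the lower in both GC groups in 88 members (44%), against 52.1% of all genes tested, and the higher in both in 37 (18.5%), against 13.1%.

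**Figure D5:**
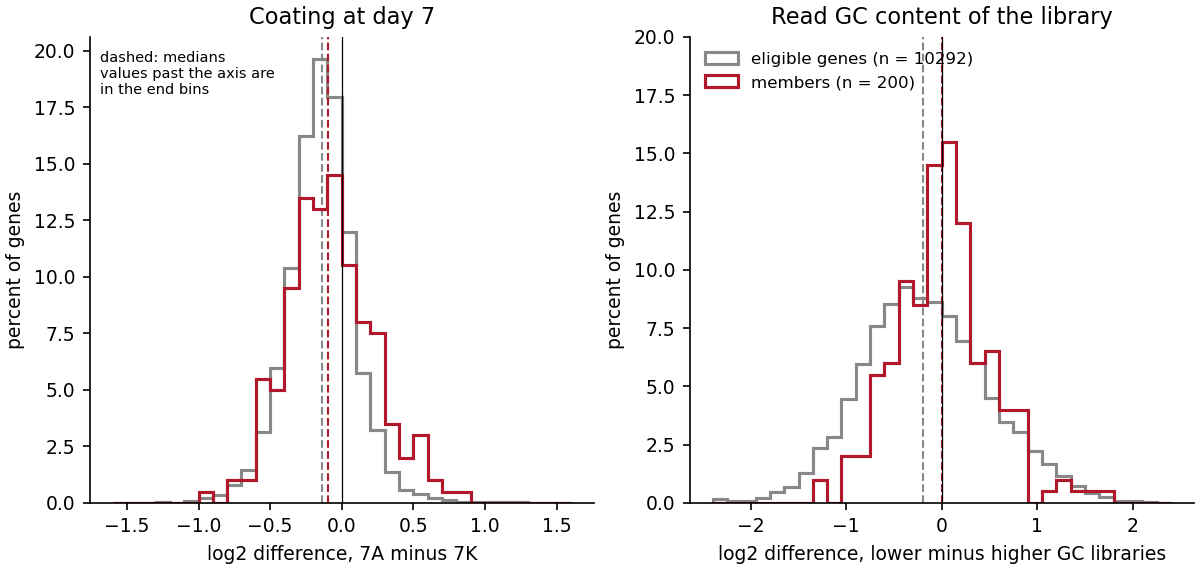
Percent of genes (vertical axes) by log2 difference between coated and control fruit on day 7 (left) and between libraries of lower and higher read GC content (right), for the 200 members in red and the 10292 eligible genes in grey, with dashed lines at the medians. On the left the medians are -0.09 and -0.14, and on the right they are 0.00 and -0.20.

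Differences between the lower and the higher GC libraries were smaller in the members than in the eligible genes. The rule ranks by single lowest and highest values, and each day held libraries of both GC groups. A GC difference in either direction therefore lowers the rule ratio. The small differences are at least in part a property of the choice, and how large that part is was not tested. The fitted log2 difference, lower minus higher, had a median of 0.00 in the members, against -0.20 in the eligible genes and -0.26 in all genes tested. It was at least 1 in size in 12 members (6%), against 14.5% of the eligible genes and 15.9% of all genes tested. At an adjusted p-value under 0.05 (limma), 112 members differed (56%), 52 higher and 60 lower in the lower GC libraries. The background was 76.2% of the eligible genes and 71.9% of all genes tested. Of the 200 genes raised most by the mirrored rule (lowest day 7 over highest day 1 value), 6 had that size and 115 were called. Smaller GC differences were thus not seen in the members alone, and the mirrored rule bears on them in the same way. The largest values among the members were 1.66 in Ma05_g12660 and 1.596 in Ma05_g23080 on one side and -1.25 in Ma05_g15730 and -1.22 in Ma01_g00220 on the other. These genes and those of the next paragraphs were named after their values were seen, unless the rule named them.

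Replicates of 7K were far apart in a small number of members. The highest 7K value was at least 3 times the lowest in 12 members, and in 10 of them 7K_a was the lowest and 7K_c the highest. At least 5 times was reached in 5 members, Ma10_g28910, Ma03_g14410, Ma05_g15740, Ma05_g12660 and Ma07_g07930, at 24.5, 12.9, 6.86, 5.97 and 5.06 times, all in that order of libraries. In 7A a spread of at least 3 times was found in 8 members and of at least 5 times in 0. No such counts are given for the eligible genes. The highest over the lowest 7K value had a median of 1.45 in the members and 1.55 in the eligible genes. In 7A the medians were 1.42 and 1.69, so the typical spread was smaller in the members on day 7. The rule bears on this, since a gene with 1 high day 7 value was less likely to be chosen. Over all members, 7K_c was the highest of the 3 control libraries in 62% and 7K_a the lowest in 48.5%, against 36.2% and 30.7% of the eligible genes. 7K_c is the lower GC library of its group, and the fitted GC difference of the 5 genes was 1.41, 0.67, 1.08, 1.66 and -0.12 in the same order. The GC difference was fitted over all 4 groups, and its part in the spread within 7K was not tested.

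Members were spread over the genome. Each of the 11 chromosomes held between 12 and 25 members, which is 1.61% to 2.69% of its eligible genes, against 1.94% over the genome. Chromosome 5 had the highest share, with 23 of 854, and chromosome 7 the lowest, with 14 of 867. Unplaced sequence held 2 members and mitochondrial sequence 0 of its 4 eligible genes. Only 2 pairs of members were next to each other in the order of the tables, against 1 pair among the 200 genes that the mirrored rule (lowest day 7 over highest day 1 value) chose as raised most.

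The pair on chromosome 8 consisted of Ma08_g24160 (37439943 to 37443997) and Ma08_g24170 (37450194 to 37457673), 6197 bp apart. Ma08_g24160 had an FPKM of 27.0, 32.7 and 17.2 in 1K and 17.1, 17.0 and 40.7 in 1A on day 1, and 2.39, 3.71 and 2.11 in 7K and 3.08, 2.85 and 1.26 in 7A on day 7. Ma08_g24170 had 63.2, 53.2 and 42.1 in 1K and 50.5, 49.0 and 66.7 in 1A on day 1, and 13.8, 13.8 and 12.2 in 7K and 14.3, 14.3 and 10.2 in 7A on day 7. The second gene was the more abundant and fell less, 3.98-fold against 9.36-fold in control fruit. The pair on chromosome 5 was Ma05_g15730 (12138074 to 12141167) and Ma05_g15740 (12158543 to 12159226). Both fell, 10.1-fold and 22.0-fold in control fruit, but among replicates they moved in opposite ways. Ma05_g15730 was lower in the lower GC libraries, with 39.8, 31.0 and 14.9 in 1K, and Ma05_g15740 was higher there, with 291.1, 326.4 and 451.7 in 1K. Their fitted GC differences were -1.25 and 1.08.

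The genomic span of the members, introns included, was shorter than that of the eligible genes, with a median of 3708 bp (range 565 to 29377) against 5117 bp. Spans of at least 10000 bp made up 6.5% of the members and 18.1% of the eligible genes. The 200 genes of the mirrored rule were also short, with a median of 3918 bp and 8% at or above 10000 bp, so the short span was not seen in the members alone.

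More implied fragments stood behind the day 1 values than behind those of day 7. This order follows largely from the choice, since all members had a higher FPKM on day 1. The lowest number of implied fragments of a member in any day 1 library had a median of 658 and a minimum of 42.4, whereas the lowest in any day 7 library had a median of 56.8. It was under 30 in 58 members, and 7A_c was the library with the fewest implied fragments in 168 of the 200. The thinnest value was that of Ma03_g00870 in 7A_c, an FPKM of 1.42 with a confidence interval of 0.260 to 2.58 from 6 fragments. The lowest lower bound of day 1 lay above the highest upper bound of day 7 in all 200 members, and the ratio of the bounds was above 2 in 180. The bounds surround the values that the rule ranked, so this gap is largely a property of the choice. These intervals cover counting error within a library only.

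Which genes belong to the 200 depended on the floor more than on any library. When the floor of 1 was asked of the 6 day 1 libraries only, 68 members were among the first 200 and the other 132 places went to genes with an FPKM under 1 in at least 1 day 7 library. The members are therefore the deepest falls by the rule ratio among genes that remained measurable and met the day 1 coating limit. They are not the deepest falls of the pulp, and without the coating limit 139 members stayed. With any 1 library left out, 174 to 196 members stayed, the fewest without 1A_c, and 141 stayed under every such removal. Ranking the 6 control libraries alone kept 100 members and the 6 coated libraries alone 72. Both were ranked without the limit on day 1 coating and with the floor asked of those 6 libraries only. Ranking by the ratio of means kept 160.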

How the data were processed

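RNA of banana pulp was sequenced in 12 libraries. FastQC, TopHat and Cufflinks were the authors' tools for read quality, mapping to DH Pahang version 2 and gene values (Cufflinks version 2.2.2.1 per the submitters' processing notes). The deposited values are FPKM with 95% confidence bounds, and were used as they stand. The handling of multi-mapped reads is not given in the sources used here, so near-identical genes can share fragments.

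Members were ranked with pandas 2.3.3 and numpy 2.4.6 (Python 3.11.15). The members, lists and tests were chosen with earlier results of these data known. Values were tested as log2(FPKM + 1) in limma 3.58.1 under R 4.3.3 with an intensity trend, in 1 fit of the 4 group means over the 19746 genes that reached an FPKM of 1 in 3 or more libraries, which include all 200 members. Adjusted p-values are Benjamini-Hochberg values over all genes tested, with a threshold of 0.05. A fold change on this scale understates the change of low genes. Implied fragments were computed from the FPKM and its upper bound, taking the bound to lie 2 standard deviations of a fragment count above, and give the precision from counting only. The fit and the rule were tried on simulated data with independent errors between libraries. Deviations shared by the libraries of a GC group were not simulated, so this check does not cover them. Figures were drawn with matplotlib 3.10.9.

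The labels number the replicates in each group. The 7K and 7A libraries of the same number deviated together from their group means, with r across genes of 0.71, 0.47 and 0.85, which meets the criterion used for a pairing (every r positive and clearly above 0). Libraries of unlike number but the same GC group correlated about as well (0.67 for 7K_a with 7A_b and 0.48 for 7K_b with 7A_a), and same-numbered libraries of day 1 had -0.61, -0.63 and -0.87, so these r values followed the GC groups. The main fit holds no block, and the replicate block is an alternative. The GC group was taken from the study's run statistics.

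Genes were named by a rule: the 15 members ranked first, 3 genes on each side of the limit, the 5 members with the highest day 1 mean and the 3 with the highest day 7 mean, the 2 members of lowest p-value in each direction for coating on day 7 where none passed, and members next to one another. Alternatives covered the pseudocount, filter, scaling, trend, blocks, voom, the libraries in the fit and each library left out. The row without ID (1), the repeated ID (1) and the failed estimate (1 value) concern no member.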

Additional observations from a re-analysis of the deposited data

How the results depend on the processing

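The count of members called for coating on day 7 was 0 under 22 of 26 alternatives, among them the replicate block (0), the replicate block with the 6 day 7 libraries alone (0, chosen after seeing the data) and each removal of 1 library (0 to 0). It was 23 with the GC group block. In 3 combinations of the block with a second change, chosen after seeing the data, it was 8 with quantile normalization (6 higher, 2 lower), 23 with median-of-ratios scaling and 21 with voom on the implied fragments (13 higher, 8 lower). In limma on log2 values the block left the differences themselves unchanged and altered their error. The adjusted p-values of Ma04_g02890, Ma01_g17040, Ma10_g07330 and Ma04_g15110 ran from 0.00103 to 1 over the 26 alternatives.

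The number of members shared with the 200 fell to 68 with the floor asked of day 1 only, to 100 with the control libraries alone, to 72 with the coated libraries alone and to 124 with the 5 lower GC libraries alone, the last 3 chosen after seeing the data. It was 139 to 180 under the other 6 planned settings of the rule, 136 with the 7 higher GC libraries alone, and 174 to 196 with 1 library left out. Wherever libraries were left out, the floor was asked only of those kept. Few implied fragments limit the precision of the day 7 values of low members, most of all in 7A_c.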
